A study of Gallus gallus with 14 samples.

Results

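Cytosolic ribosomal protein genes encode the proteins that, with ribosomal RNA, form the large and small subunits of the ribosome that translates nuclear mRNAs. They were taken from the deposited table by symbol: RPL, RPLP and RPS genes named by number, and RPSA. The rule found 74 genes among the 18631 listed, 44 of the large and 30 of the small subunit, and each symbol was listed once. Of these, 72 reached at least 1 CPM (counts per M reads of the library total) in at least 7 of 14 libraries and were tested among 11132 genes. The other 2 stayed under 1 CPM in every library.

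Retinas of wild type White Leghorn chicks were compared after lens wear and without it, to ask which transcripts differ in the retina during lens-induced myopia. The lens group, labelled as lens-induced myopia, comprised 7 retinas (46, 47, 48, 51, 53, 54 and 55) whose eyes wore a -10 D lens for 6 days from the age of 3 days. The control group comprised 7 retinas (57, 58, 59, 62, 63, 64 and 65), labelled as control retinas. The age of 3 days was also given for the control samples, with no lens power or days of wear. Each library was made from total RNA after removal of ribosomal RNA. Total depth, read from the step between low values, was 32.3 to 42.6 M reads per library, of which listed genes held 31.7% to 34.2%. Markers of photoreceptors, amacrine cells and Muller glia were present in every library, summing to 843 to 1260 CPM in lens and 958 to 1215 CPM in control libraries for the photoreceptor list. Those of the pigment epithelium summed to 2.01 to 6.72 CPM in lens and 3.42 to 6.15 CPM in control libraries, and those of leukocytes to 6.38 to 8.70 CPM in lens and 5.34 to 8.15 CPM in control libraries. Of 7 tested photoreceptor markers 1 was called higher and 3 lower, and 3 of 6 amacrine and 1 of 7 ganglion cell markers were called lower, where 0.916% of all tested genes were called higher and 1.84% lower. In whole retina, fewer cells of a type and less RNA per cell cannot be told apart.

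In vertebrates most mRNAs of ribosomal proteins start with a run of pyrimidines, the TOP motif (terminal oligopyrimidine). Through it their translation follows the growth kinase mTORC1 and the binding protein LARP1. The same motif is carried by mRNAs of several translation factors, and the proteins are made in matched amounts because each ribosome holds a copy of nearly all of them. Transcript levels, which are what was measured here, do not report that translational control.

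No ribosomal protein gene was called between lens and control retinas. For a set of 72 genes, counts of 0 called or 0 not overlapping lie near the shares of all tested genes. They do not set the members apart from other genes. In limma with Benjamini-Hochberg adjustment over all tested genes, 0 of the 72 members passed an adjusted p of 0.05, where 2.76% of all tested genes did. None was called higher (0.916% of all tested genes) and none lower (1.84%). Under trimmed-mean (TMM) factors, which rescale the libraries, 0 members also passed, and the calls over all tested genes were 158 higher and 107 lower, where they were 102 higher and 205 lower on the deposited scale. At an unadjusted p under 0.05 there were 2 members, or 2.78%, where 16.1% of all tested genes passed. The exact permutation test per gene called 0 members, with 2 under an unadjusted p of 0.05. Its calls over all tested genes, 62 higher and 108 lower, equalled the counts of genes whose groups did not overlap. Its 0 therefore adds little to the overlap of the members given next. The lens and control values overlapped for all 72 tested members, while 1.53% of all tested genes did not overlap, 0.557% with every lens value above and 0.97% with every lens value below the controls. Without control replicate 58, 1 member passed, RPS12, with a limma adjusted p of 0.0471.

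The differences were small. The median log2 fold change of the members was 0.0060, with a range of -0.21 to 0.26, beside a median of -0.038 for all tested genes. Of the members, 39 lay above 0, or 54.2%, beside 35.0% of all tested genes. The median was 0.014 for the 43 tested large subunit genes and -0.0035 for the 29 tested small subunit genes. These directions were not stable, since the median of the members ran from -0.016 to 0.044, that of the large subunit from -0.0089 to 0.055 and that of the small subunit from -0.027 to 0.034 over the alternatives. For 52 of the 72 members, or 72.2%, the 95% interval of the difference lay within 0.25 on the log2 scale in either direction. It did for 52.2% of all tested genes. For 4639 other genes with control means of 11.3 to 94.8 CPM, a range that holds most members, the share was 68.5%. Of the large subunit genes 35 of 43 met that limit, and of the small subunit genes 17 of 29. The added 1 CPM in log2(CPM + 1) makes these fold changes too small for genes of low level.

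**Figure D1:**
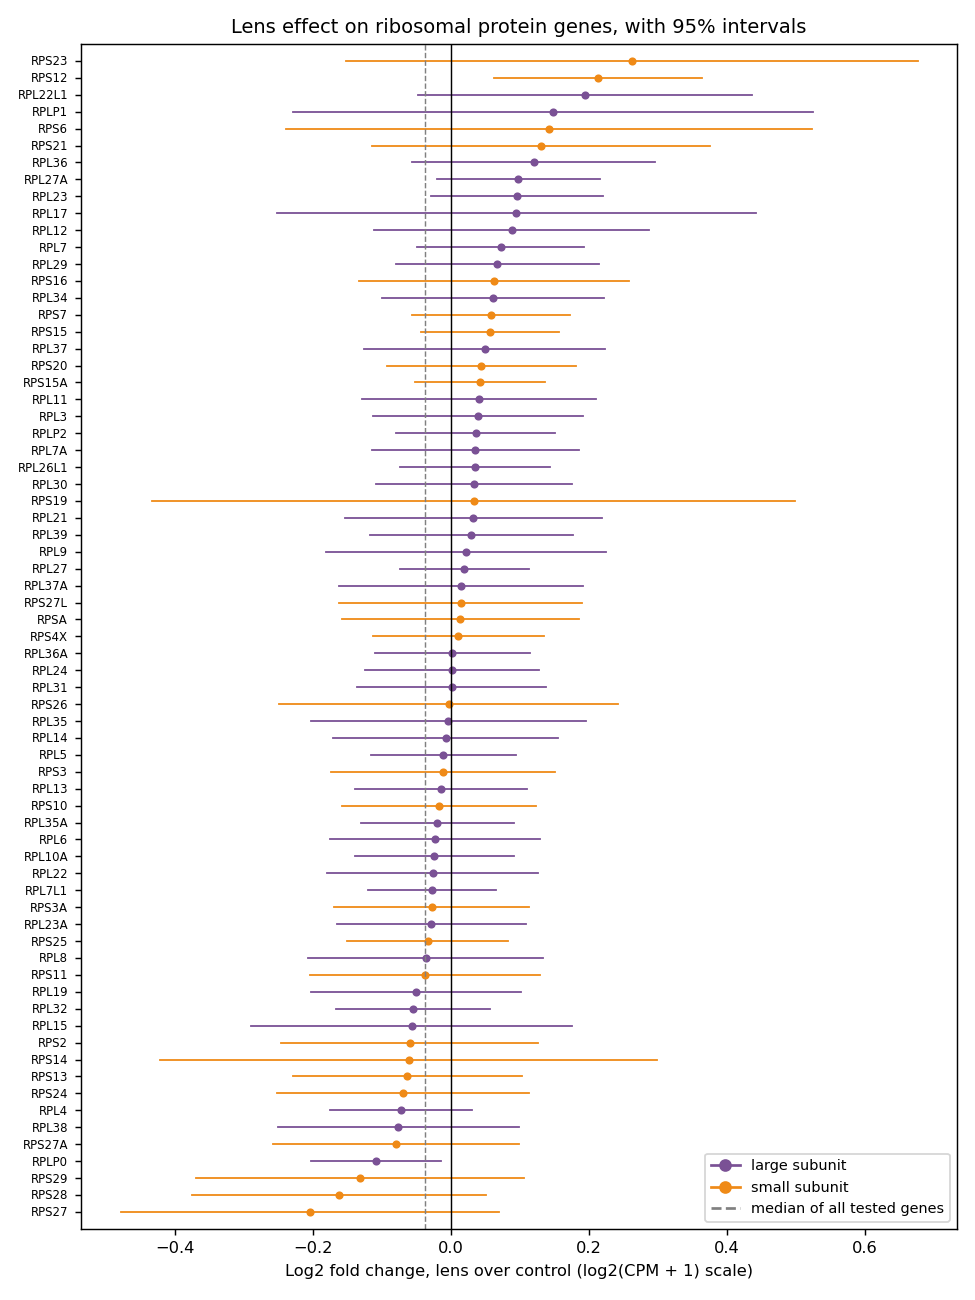
Log2 fold change of 69 of the 72 tested ribosomal protein genes, lens over control, with the 95% interval from limma; purple marks the large and orange the small subunit, and the dashed line is the median of all tested genes. The points run between -0.21 and 0.26, and the intervals of RPS12 and RPLP0 are the 2 that leave out 0.

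Summed over members, the transcripts held nearly equal parts of the libraries in both groups. Summed over the 74 genes, the level was 3334 CPM ± 161 (SD, n = 7) in lens and 3310 CPM ± 167 (SD, n = 7) in control retinas. The lens retinas ran from 3102 CPM in 47 to 3581 CPM in 53, with a median of 3350 CPM. The control retinas ran from 3120 CPM in 63 to 3505 CPM in 57, with a median of 3282 CPM. The difference of 0.733% was smaller than the SD of either group. As a share of the listed genes, the members held 1.02% ± 0.0323 (SD, n = 7) in lens and 0.991% ± 0.0505 (SD, n = 7) in control libraries.

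Both subunits showed this overlap. Large subunit genes summed to 2148 CPM ± 87.5 (SD, n = 7) in lens and 2138 CPM ± 111 (SD, n = 7) in control retinas. Small subunit genes summed to 1186 CPM ± 84.6 (SD, n = 7) in lens and 1173 CPM ± 61.1 (SD, n = 7) in control retinas. The ratio of small to large subunit sums was 0.508 to 0.599 in lens and 0.534 to 0.580 in control libraries. It was highest in lens 55 (0.599), control 65 (0.580) and lens 48 (0.562), the libraries with the highest RPS6, described below.

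**Figure D2:**
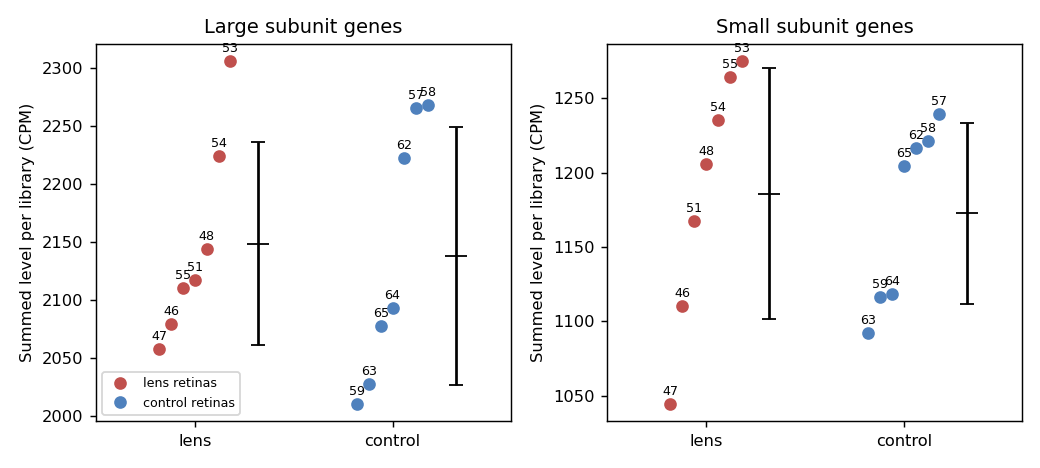
Summed CPM of the large (left) and small (right) subunit genes in each library, with the replicate number above each point, points sorted by value within a group, and bars for the mean and SD of 7 libraries; the axes do not start at 0. The groups overlap in both panels, with 2058 to 2306 CPM in lens and 2010 to 2268 CPM in control retinas for the large subunit, and 1045 to 1275 CPM in lens and 1092 to 1239 CPM in control retinas for the small subunit.

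RPLP0, RPLP1 and RPLP2 form the acidic stalk that recruits translation factors to the ribosome, and RPLP0 is often used as a reference gene in quantitative PCR. RPLP0 (chromosome 15, 9721891 to 9724551) measured 42.2 CPM at the lowest, 46.1 CPM at the median and 48.6 CPM at the highest in lens retinas, against 45.1, 49.4 and 53.7 CPM in control retinas. Its lens values lay mostly in the lower part of the control range, and 3 of 7 lay below every control. Its log2 fold change was -0.11 ± 0.045 (SE, limma adjusted p = 0.232), with a 95% interval of -0.20 to -0.015. RPLP1 measured 10.1, 12.9 and 21.5 CPM (lowest, median and highest) in lens and 7.94, 11.4 and 22 CPM in control retinas. Lens 55 and control 57 were the high libraries of RPLP1, and the groups covered nearly the same range. RPLP2 averaged 18.8 CPM ± 1.23 (SD, n = 7) in lens and 18.3 CPM ± 1.33 (SD, n = 7) in control retinas.

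Other large subunit genes named by their small p were on either side of 0. RPL22L1, also named by its p, is described with the paralogues below. RPL4 (chromosome 10, 18943500 to 18948822), which lines the exit tunnel of the nascent chain, measured 129, 144 and 158 CPM (lowest, median and highest) in lens and 145, 151 and 161 CPM in control retinas. In 4 of 7 lens retinas RPL4 lay below every control, and its log2 fold change was -0.073 ± 0.049 (SE, limma adjusted p = 0.501). RPL27A measured 80.6, 94.2 and 99.3 CPM in lens and 78.1, 84.1 and 103 CPM in control retinas. Lens 55 was the low library of RPL27A, and the other 6 lens values lay between 92.2 and 99.3 CPM, above all controls but 58. Its log2 fold change was 0.097 ± 0.056 (SE, limma adjusted p = 0.414). RPL23, which in mammals also binds the p53 regulator MDM2, had 0.096 ± 0.059 (SE, limma adjusted p = 0.458). Its lens value exceeded the highest control in 3 of 7 retinas. RPL3, which reaches the peptidyl transferase centre, was named as part of a paralogue pair and not by its p. It averaged 50.4 CPM ± 3.88 (SD, n = 7) in lens and 49.2 CPM ± 6.55 (SD, n = 7) in control retinas.

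Of the small subunit genes, RPS12 had the smallest p of all members. RPS12 (chromosome 3, 56858324 to 56862422), a protein known from Drosophila for its part in competition between cells with different ribosomal gene doses, measured 29.4 CPM at the lowest, 34.8 CPM at the median and 37.7 CPM at the highest in lens retinas, against 25, 29.2 and 36.1 CPM in control retinas. In 6 of 7 lens retinas RPS12 lay between 33.5 and 37.7 CPM, and in 6 of 7 controls between 25 and 31.9 CPM. The exceptions were lens 46 (29.4 CPM) and control 58 (36.1 CPM). Its log2 fold change was 0.21 ± 0.071 (SE, limma adjusted p = 0.137), with a 95% interval of 0.062 to 0.36. Leaving out control 58 gave 0.26 (limma adjusted p = 0.0471), and the adjusted p ran from 0.0471 to 0.230 over its 29 alternatives.

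RPS29, mutated in some patients with Diamond-Blackfan anaemia, measured 15.7, 17.8 and 28.8 CPM (lowest, median and highest) in lens and 18.6, 20.5 and 25.6 CPM in control retinas. Lens 53 was its high library, 4 of 7 lens values lay below every control, and the log2 fold change was -0.13 ± 0.11 (SE, limma adjusted p = 0.616). RPS28 averaged 5.04 CPM ± 0.856 (SD, n = 7) in lens and 5.76 CPM ± 0.918 (SD, n = 7) in control retinas, with -0.16 ± 0.10 (SE, limma adjusted p = 0.458). RPS3, at the mRNA entry channel, averaged 40.1 CPM ± 4.01 (SD, n = 7) in lens and 40.5 CPM ± 5.08 (SD, n = 7) in control retinas. RPSA, also known as the laminin receptor precursor, averaged 59.3 CPM ± 6.74 (SD, n = 7) in lens and 58.8 CPM ± 7.26 (SD, n = 7) in control retinas. RPS27A, made as a fusion with ubiquitin, averaged 9.89 CPM ± 1.11 (SD, n = 7) in lens and 10.5 CPM ± 1.49 (SD, n = 7) in control retinas. The 45 tested members not named by the selection rule had log2 fold changes of -0.091 to 0.13, 22 above and 23 below 0.

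Some members have a related gene that can take their place in the ribosome or that acts in other tissues or steps. RPL22L1 (chromosome 9, 19878954 to 19880949), the paralogue of RPL22, measured 12.8, 14.8 and 22 CPM (lowest, median and highest) in lens and 10.7, 13.7 and 17.8 CPM in control retinas. Lens 53 was its high library, and its log2 fold change was 0.19 ± 0.11 (SE, limma adjusted p = 0.430), while RPL22 had -0.027 ± 0.073 (SE, limma adjusted p = 0.902). RPL22L1 reads amounted to 42.1% ± 6.53 (SD, n = 7) of those of RPL22 in lens and 36.2% ± 8.30 (SD, n = 7) in control libraries, with overlapping ranges. RPS27L, which in mammals is a p53 target, averaged 0.974 CPM ± 0.180 (SD, n = 7) in lens and 0.956 CPM ± 0.190 (SD, n = 7) in control retinas. RPS27 had 3.06 CPM ± 0.703 (SD, n = 7) in lens and 3.71 CPM ± 1.00 (SD, n = 7) in control retinas, with the most negative fold change of the members, -0.21 ± 0.13 (SE, limma adjusted p = 0.473). RPL7L1, which acts in the making of the large subunit, averaged 17.5 CPM ± 0.922 (SD, n = 7) in lens and 17.8 CPM ± 0.510 (SD, n = 7) in control retinas, and RPL7 averaged 81.1 CPM ± 5.94 (SD, n = 7) and 77.2 CPM ± 6.62 (SD, n = 7) in those groups. RPL3L, known from striated muscle, was at 0.242 CPM ± 0.107 (SD, n = 7) in lens and 0.224 CPM ± 0.075 (SD, n = 7) in control retinas, or 4 reads in its lowest library. The split of reads within each pair is uncertain, because the counting of reads that fit both copies is not stated.

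Members on chromosome Z split the libraries in a way that the lens and control groups did not. RPS6, the substrate of the ribosomal S6 kinases (chromosome Z, 33736418 to 33740877), measured 77.0 to 91.3 CPM in 5 lens retinas and 160 and 145 CPM in lens 48 and 55. In controls it measured 70.4 to 92.0 CPM in 6 retinas and 158 CPM in 65. RPL17 (chromosome Z, 1078186 to 1081527), a large subunit protein near the exit tunnel, measured 15.6 to 19.5 CPM in the same 5 lens retinas, and 29.0 and 34.2 CPM in lens 48 and 55. In controls RPL17 measured 16.4 to 19.7 CPM in 6 retinas and 31.0 CPM in 65. RPS23 (chromosome Z, 63563439 to 63565259), a protein of the decoding centre, measured 13.1 to 17.5 CPM in those 5 lens retinas and 28.7 and 33.6 CPM in lens 48 and 55, against 9.48 to 18.9 CPM in 6 controls and 22.2 CPM in control 65. For each of these 3 genes the same 3 libraries lay above the other 11.

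Those 3 libraries were also the ones with almost no transcripts of chromosome W. The summed level of 48 W-linked genes was 2.82 CPM in lens 48, 4.56 CPM in lens 55 and 2.20 CPM in control 65, and 616 to 721 CPM in the other 11 libraries. In birds, females carry a W and a single Z chromosome and males carry a pair of Z chromosomes, and the labels give no sex. The ratio of the medians, the 3 libraries over the other 11, was 1.91 for RPS6, 1.75 for RPL17 and 1.79 for RPS23. RPL37 (chromosome Z, 12918278 to 12920909), the remaining member on that chromosome, had a ratio of 1.06, with 9.67 and 12.1 CPM in lens 48 and 55, 9.22 CPM in control 65 and 7.90 to 11.1 CPM in the other 11. The 68 tested members on other chromosomes had ratios of 0.670 to 1.2, with a median of 0.959. For 0 of these 68 did the 3 libraries lie above the other 11. Among all tested genes outside chromosomes Z and W they did for 15 of 10548, or 0.142%. The 0 therefore does not set the members apart from other genes. Over all tested genes of chromosome Z the median ratio was 1.41, and for 334 of 554 the 3 libraries lay above the others. These ratios are descriptions, since the libraries were set apart by their own W-linked values.

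**Figure D3:**
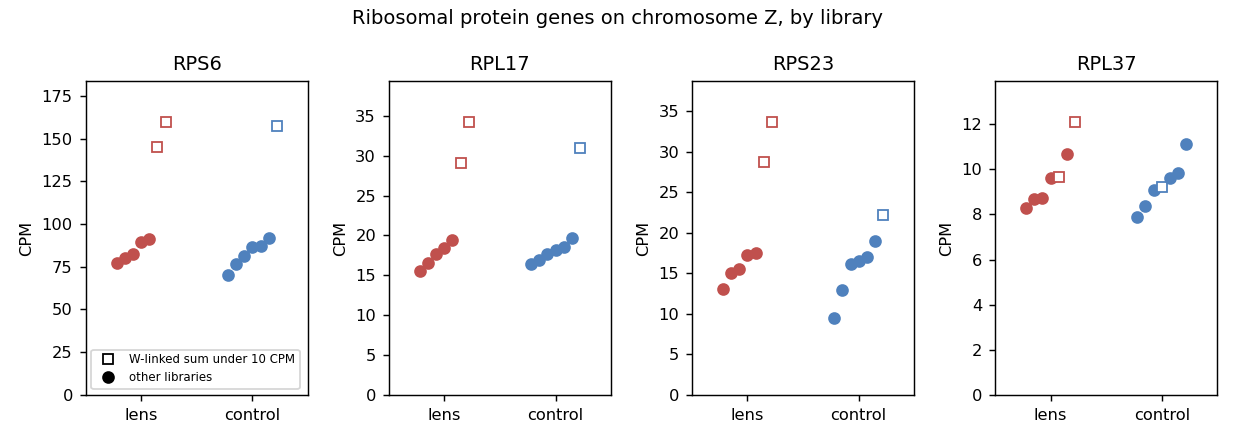
CPM of the 4 ribosomal protein genes of chromosome Z in each lens (red) and control (blue) library, points sorted by value within a group; open squares mark the 3 libraries with W-linked sums under 10 CPM. The open squares lie above all filled circles for RPS6, RPL17 and RPS23; for RPL37 lens 55, at 12.1 CPM, lies above all circles and the other squares lie among them.

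This split touched the lens comparison of the Z-linked members, since 2 of the 3 libraries were lens retinas and 1 was a control. RPS23 had the highest fold change of all members, 0.26 ± 0.20 (SE, limma adjusted p = 0.561), and 0.069 ± 0.13 (SE, limma adjusted p = 0.855) without the 3 libraries. RPS6 had 0.14 ± 0.18 (SE, limma adjusted p = 0.767) over all 14 libraries and 0.031 ± 0.067 (SE, limma adjusted p = 0.871) without them. RPL17 had 0.094 ± 0.16 (SE, limma adjusted p = 0.840) over all 14 libraries and -0.030 ± 0.067 (SE, limma adjusted p = 0.876) without them. Without the 3 libraries RPS6 averaged 84.0 CPM ± 6.09 (SD, n = 5) in lens and 82.3 CPM ± 7.92 (SD, n = 6) in control retinas. With W-linked expression as a covariate over all 14 libraries, RPS23 had 0.16 ± 0.12 (SE, limma adjusted p = 0.545). In that fit RPS6 had 0.023 ± 0.059 (SE, limma adjusted p = 0.882) and RPL17 had -0.011 ± 0.063 (SE, limma adjusted p = 0.954). The residual SD of RPS6 on the log2 scale was 0.120 with the covariate, and 0.401 without it. These SDs were 0.119 and 0.361 for RPL17, 0.271 and 0.433 for RPS23, and 0.157 and 0.160 for RPL37. The share of sex and of other causes in these values was not tested.

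The spread between retinas differed greatly among members. The coefficient of variation (CV, the SD over the mean) had a median over the 72 tested members of 9.90% in lens and 10.9% in control retinas. For 4639 other genes with control means between 11.3 and 94.8 CPM, the range that holds the middle 80% of the members, these medians were 7.72% and 8.03%. Read counting alone would give the members a median control CV of 2.97%. RPL7L1 (2.86%) and RPL27 (3.99%) were among the members with the smallest CVs in controls, that of RPL7L1 being below its counting CV of 3.98%. RPL27 measured 76.8 to 91.2 CPM over the 7 lens retinas and 75.1 to 85 CPM over the 7 control retinas. RPS19 (38.0%), RPLP1 (36.2%) and RPS6 (31.5%) had the largest CVs in controls.

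RPS19, the gene most often mutated in Diamond-Blackfan anaemia, lies on an unplaced scaffold (5246 to 9396). It measured 14.1, 23.7 and 34.1 CPM (lowest, median and highest) in lens and 12.8, 25.3 and 38.8 CPM in control retinas, so that both groups spanned more than a doubling. RPS14, named here after its values were seen, measured 15.8 and 19.4 CPM in lens 47 and 48. In the other 5 lens retinas it measured 34.1 to 36.8 CPM. Controls 64 and 58 measured 22.1 and 25.5 CPM for RPS14, and the other controls 31.7 to 34.9 CPM. In both groups the RPS14 values thus fell into a low pair and a high set. Its CV was 28.7% in lens and 15.7% in control retinas. CVs above 20% were found for 10 members in lens and 8 in control retinas. RPS6, RPL17 and RPS23 of chromosome Z were among them in both groups. Of the members of low level, RPS27 and RPS21 had control CVs of 27.0% and 22.8%, beside counting CVs of 8.69% and 10.4%. RPS27L, under 20% in both groups, had a counting CV of 17.1% beside its control CV of 19.9%. The spread of RPS27L was thus close to that of read counting.

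**Figure D4:**
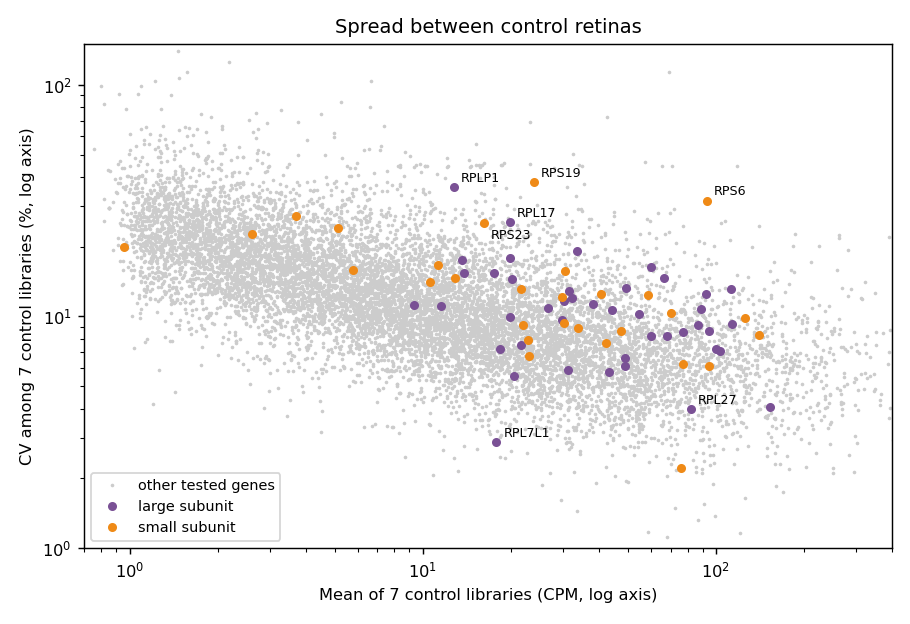
CV among the 7 control retinas against the control mean, both on log axes, for the tested ribosomal protein genes (purple, large subunit; orange, small subunit) and all other tested genes (grey). RPS19, RPLP1 and RPS6 lie high in the cloud with CVs of 38.0%, 36.2% and 31.5%, and RPL7L1 low in it with 2.86%.

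Many members varied together from retina to retina. The mean Pearson correlation over all pairs of members was 0.227 across the 14 libraries, beside 0.0379 over all pairs of tested genes and 0.0463 over pairs of 67 mitochondrial ribosomal protein genes. The mean correlation was 0.208 within the large and 0.271 within the small subunit. Over pairs of 4639 other genes of similar level it was 0.0537. It was 0.127 for ribosome biogenesis, 0.144 for initiation factor 3 and 0.119 for other initiation factors. A mixed list of mTORC1, TOP control and MYC family genes had 0.154. Other TOP mRNAs had 0.0518, the elongation factor list 0.0194, and 3 fusion and associated proteins of the cytosolic ribosome -0.0414. Among marker lists it was higher than for the members in photoreceptors (0.278), ganglion (0.375), bipolar (0.456) and amacrine cells (0.501). The other marker lists with a value had -0.154 to 0.0869. The points share library, depth and scaling, and the correlations are descriptions. Levels were centred over all 14 libraries and not within groups, so a lens difference shared by a list also adds to its correlation. The photoreceptor, ganglion and amacrine lists held called genes, where the bipolar list and the members held none. How much such differences add was not tested. The correlation of a member with the mean of the other members had a median of 0.481, and 34 of the 72 members were above 0.5. It was highest for RPL31 (0.856), RPS3A (0.838), RPSA (0.799) and RPS3 (0.797). It was lowest for RPL21 (-0.173), RPL7L1 (-0.0497), RPL15 (-0.0494) and RPS6 (0.00034).

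The libraries with high and low values were found in both groups. The mean over members of log2 levels, centred on the 14 libraries, was highest in control 62 (0.095), control 57 (0.089) and lens 53 (0.083). It was lowest in lens 47 (-0.11), control 63 (-0.11) and control 64 (-0.10). In lens 54, 58 of the 72 members lay above their own mean, and in control 63, 13 did. The value was above 0 in 3 of 7 lens and 3 of 7 control libraries. The mitochondrial ribosomal protein genes, measured the same way, ranged from -0.069 to 0.076 in lens and from -0.063 to 0.053 in control libraries.

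**Figure D5:**
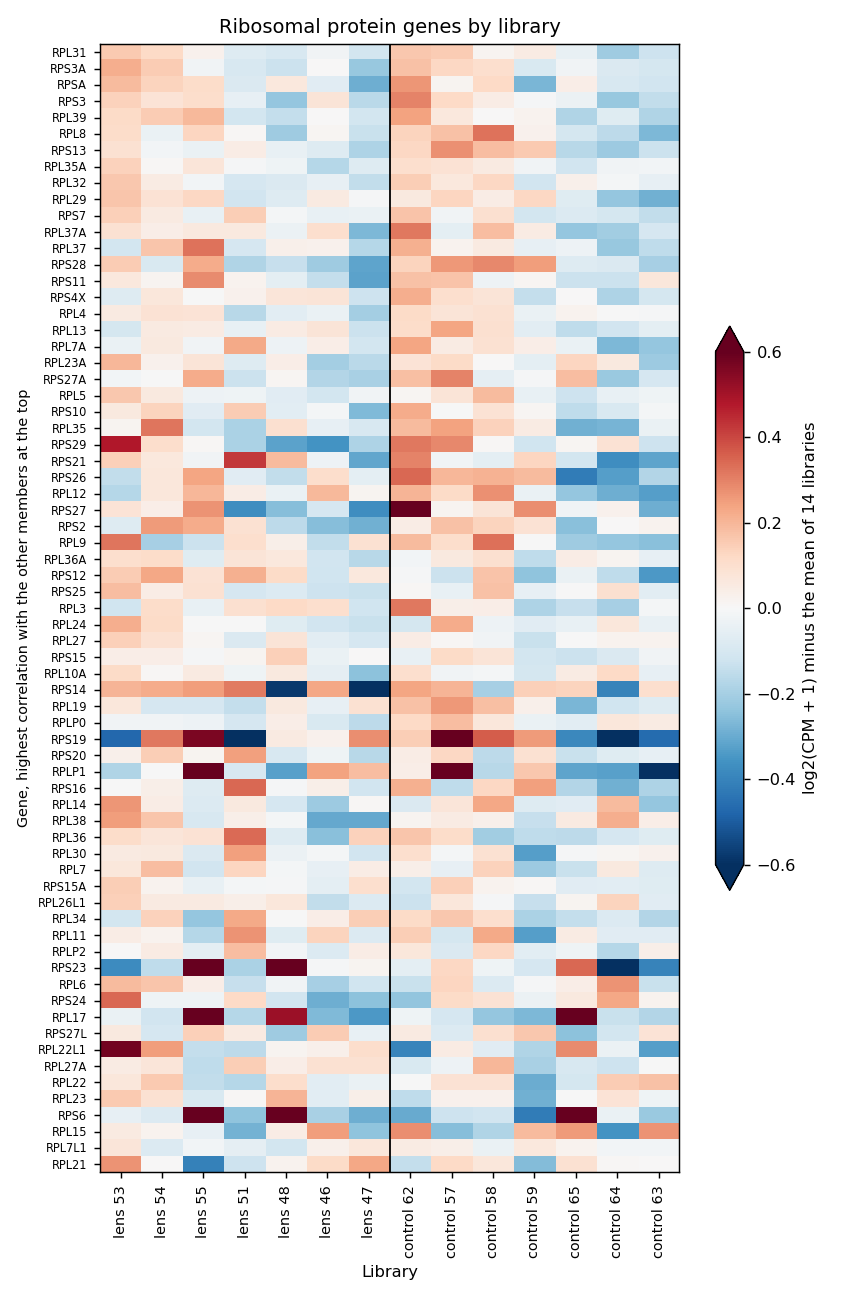
Log2(CPM + 1) of the same 69 tested ribosomal protein genes minus the mean of each over 14 libraries, with genes ordered by correlation with the other members and libraries by the mean of the members within each group (lens left, control right). Colour turns from red to blue from left to right within both groups in the upper rows, and RPS6, RPL17 and RPS23 stand out in lens 48, lens 55 and control 65.

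Outside the members, RACK1 was the gene whose level was most like the mean of the ribosomal protein genes. RACK1 is a scaffold protein bound to the head of the small subunit. Its Pearson correlation with that mean was 0.914 over 14 libraries, the highest of 11060 other tested genes. The next were TOMM7 (0.851), a subunit of the mitochondrial import pore, LOC112532526 (0.839), AKR1B10L3 (0.837) and LOC100858426 (0.832). These genes were picked as the highest of 11060 over only 14 libraries, which by itself favours high correlations. Whether the values exceed what such picking would give was not tested. RACK1 measured 23.6, 35.4 and 39.6 CPM (lowest, median and highest) in lens and 24.4, 32.2 and 51.7 CPM in control retinas. Its low libraries were lens 47 and control 64, its high ones lens 55 and control 62, and its log2 fold change was -0.010 ± 0.15 (SE, limma adjusted p = 0.984). FAU, made as a fusion of a ubiquitin-like protein with a small subunit protein, ranked 320 with a correlation of 0.582. FAU averaged 14.7 CPM ± 2.44 (SD, n = 7) in lens and 15.5 CPM ± 1.83 (SD, n = 7) in control retinas.

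Genes of translation and growth control were read beside the members. Over 8 lists with 168 tested genes, 2 passed the test, both lower, where 1.84% of all tested genes were called lower, and the median log2 fold change was -0.043. By limma 0 genes were called among 67 mitochondrial ribosomal proteins, 8 genes of an elongation factor list and 11 subunits of initiation factor 3. The same held for 13 other initiation factors, 11 other TOP mRNAs and 42 ribosome biogenesis genes. The elongation factor list was a mixed one, which also held EEF2K and EEF1E1. It shared EEF1A1 and EEF2 with the TOP list. At an unadjusted p under 0.05 there were 1, 3, 2, 5, 1 and 3 genes in that order of lists. These were 1.49%, 37.5%, 18.2%, 38.5%, 9.09% and 7.14% of each list, where 16.1% of all tested genes passed. The median log2 fold changes of the lists were -0.0094, 0.025, -0.042, -0.041, -0.084 and -0.077 in the same order. The elongation factor EEF1A1, a TOP mRNA, averaged 265 CPM ± 21.9 (SD, n = 7) in lens and 259 CPM ± 41.0 (SD, n = 7) in control retinas, and EEF2 averaged 90.4 CPM ± 8.26 (SD, n = 7) and 96.2 CPM ± 10.3 (SD, n = 7) in those groups. TPT1, another TOP mRNA, had 0.13 ± 0.067 (SE, limma adjusted p = 0.376), and the nucleolar protein NPM1 had -0.11 ± 0.061 (SE, limma adjusted p = 0.413).

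The list of mTORC1 and TOP control was a mixed one, which also held MYC family genes, MAX, LARP4, LARP4B and RPS6KA3. Its shares are therefore not those of mTORC1 or the TOP motif alone. Of its 16 tested genes, 2 were called lower, RPS6KB2 and LARP4B, or 12.5%, where 1.84% of all tested genes were called lower. At an unadjusted p under 0.05 there were 6 of the 16, or 37.5%, where 16.1% of all tested genes passed. The other 4 of these 6 were named after their values were seen. MYCL, a transcription factor of the MYC family, lay on the other side, with 1.96 CPM ± 1.01 (SD, n = 7) in lens and 0.855 CPM ± 0.361 (SD, n = 7) in control retinas. Its log2 fold change was 0.64 ± 0.17 (SE, limma adjusted p = 0.0566), and 5 of 7 lens values lay above every control. RPTOR, the scaffold subunit of mTORC1, had -0.22 ± 0.075 (SE, limma adjusted p = 0.145), its activator RHEB had -0.18 ± 0.061 (SE, limma adjusted p = 0.149) and the kinase RPS6KA3 had -0.087 ± 0.038 (SE, limma adjusted p = 0.269). RPS6KB2, a kinase that phosphorylates RPS6, measured 1.146, 1.45 and 1.69 CPM (lowest, median and highest) in lens and 1.86, 2.13 and 2.28 CPM in control retinas. Every lens value of RPS6KB2 lay below every control, and its log2 fold change was -0.32 ± 0.073 (SE, limma adjusted p = 0.0214). Its call was lost without lens replicate 54 (limma adjusted p = 0.0515); over its alternatives the adjusted p lay between 0.0101 and 0.0515. LARP4B, an RNA-binding protein that promotes translation, measured 42.6, 44.9 and 47.4 CPM in lens and 48.2, 49.8 and 53.2 CPM in control retinas, and every lens value lay below every control. Its log2 fold change was -0.16 ± 0.038 (SE, limma adjusted p = 0.0289). The LARP4B call was lost with TMM factors, at -0.12 (limma adjusted p = 0.145), with every other rescaling tried, without an intensity trend, without the 3 libraries low in W-linked transcripts and without lens replicate 46, 47 or 48 or control replicate 58, 59 or 63. Its adjusted p lay between 0.0141 and 0.145 over its alternatives. The related kinase RPS6KB1 averaged 27.8 CPM ± 1.6 (SD, n = 7) in lens and 28.0 CPM ± 1.24 (SD, n = 7) in control retinas. MTOR had -0.082 ± 0.041 (SE, limma adjusted p = 0.346), and 4 of 7 lens values lay below every control. LARP1, which binds the TOP motif, averaged 19.9 CPM ± 5.33 (SD, n = 7) in lens and 19.5 CPM ± 5.21 (SD, n = 7) in control retinas, and EIF4EBP1 had 0.087 ± 0.084 (SE, limma adjusted p = 0.665).

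Ribosomal protein genes often carry snoRNAs in their introns, and 17 of the 74 members overlapped another listed gene. For 11 of them the overlapping gene was a snoRNA on the same strand, for 4 a gene on the other strand and for 2 another gene on the same strand. RPL14 overlaps ENTPD3, which measured 16.5 CPM in lens and 17.2 CPM in control retinas. No source used here gives the strand setting, and values of overlapping members are uncertain. The members lay on many chromosomes, with 9 on chromosome 1, 7 each on chromosomes 2 and 4, and 4 on Z. Levels of different members were not ranked, because transcript lengths were not used here.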

How the data were processed

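Values were CPM as deposited by the authors, in 1 table of 14 retinal libraries, with 0.0001 added to every entry, which was subtracted. STAR and Partek (no versions) and the build GRCg6a are named in the submitters' processing notes; no source used here gives the counting method or strand setting. Low values were whole multiples of 1 read for 92.8% to 93.6% of entries within 0.02 of a read, so no count model was used. Groups and replicate numbers came from the titles. The labels do not say that retinas came from different animals, so p-values measure the spread between these samples. No 2 libraries of a group agreed within sampling noise (chi-square per gene at least 6.41), so each counted as 1 sample.

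Values were tested as log2(CPM + 1) in R 4.3.3 with limma 3.58.1 and its intensity trend, for genes reaching 1 CPM in 7 or more of 14 libraries, with Benjamini-Hochberg adjustment over 11132 genes and a threshold of 0.05. On simulated reads for lens against control (11059 genes, 200 changed), the share recovered was 45.5% at 1.2-fold, 97.0% at 1.5-fold and 100% at 2-fold. Of the simulated calls, 5.39% were false. Every simulated gene had the same spread beyond read counting, the median over genes in controls. These shares therefore do not describe members of wider spread. The alternatives covered the pseudocount, filter, 4 rescalings, prior, weights, exact permutation (3432 assignments), covariates and leaving out libraries; a common sum over genes and leaving out 3 libraries low in W-linked transcripts were chosen after seeing the data. Members and lists were chosen with earlier results of these data known. Members were named by smallest p (5 in each direction), largest and smallest control CV (3 each), paralogue pairs, chromosome Z and a fixed list. Some members and related genes that these rules name are not reported here. Chromosome names come from the RefSeq table of GRCg7b, by the symbols each sequence holds. Start and stop are as deposited on GRCg6a. Python 3.11.15 and matplotlib 3.10.9 made the figures.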

Additional observations from a re-analysis of the deposited data

Results flagged for a closer look

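Among the 96 groups of 7 retinas examined, 5 values stood apart from the nearest other value by more than Dixon's 95% limit. RPS6 was 158 CPM (157.6) in control 65, with the next control at 92.0 CPM, and RPL17 was 31.0 CPM (30.95) in the same library, with the next at 19.7 CPM. RPL3 was 62.03 CPM in control 62, with the next at 50.9 CPM. RPL27 was 75.1 CPM (75.13) in control 59, with the next lowest at 81.3 CPM, and RPL27A was 80.6 CPM (80.59) in lens 55, with the next lowest at 92.2 CPM. Chance flags about 1 in 20 of the groups examined. The 96 groups did not take in every tested member, so the 5 values are not a full list over the members. RPL30, not examined in this way, was 23.7 CPM in control 59, and the other controls lay between 29.8 and 32.3 CPM.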

How the results depend on the processing

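The count of ribosomal protein genes past the threshold stayed at 0 in 29 of 30 alternatives, among them a threshold of 0.1, and ranged from 0 to 1 when 1 library was left out. The count of translation and growth genes past the threshold, 2 as reported, was 1 with a filter of 10 CPM and 1 without an intensity trend, was 4 at a threshold of 0.1, and ranged from 1 to 4 when 1 library was left out (4 without lens replicate 55); the filter of 10 CPM removes RPS6KB2. The median log2 fold change of the members ran from -0.016 to 0.044 over 29 alternatives, with 0.044 under TMM factors, where the median of all tested genes was 0.00011. Over all tested genes 307 were called as reported, and between 236 and 434 when 1 library was left out. No paired analysis was possible because the groups share no replicate number. Levels per coding length were not computed, since transcript lengths were not used here. Depth limits mainly RPS27L and RPL3L, with 21 and 4 reads in their lowest libraries.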
